A study of Mus musculus with 20 samples.

Results

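The cytosolic ribosomal protein genes of p19/Nras mouse liver cancer cells were followed through 20 RNA-seq libraries. Members were the genes whose symbol begins with Rpl or Rps and a digit, together with Rplp0, Rplp1, Rplp2 and Rpsa. Ribosomal S6 kinases (Rps6k symbols), Rps19bp1, Rps27l and symbols containing -ps, which name pseudogene loci, were left out. The rule found 86 members among 13107 genes in the Myc experiment and the same 86 among 11210 genes in the HU experiment. They comprise 52 genes of the large (60S) subunit and 34 genes of the small (40S) subunit, and all 86 passed the filter on low counts. Of the 86, 9 are paralogues or retained copies: Rpl7l1, Rpl22l1 and Rpl36al encode divergent relatives of Rpl7, Rpl22 and Rpl36a, while the 6 genes Rpl6l, Rpl32l, Rpl37rt, Rps27rt, Rps3a2 and Rps3a3 are nearly identical to their parent genes. Reads of near-identical genes can be split between them by the counting, and the log2FC of each copy followed that of its parent, with a median absolute difference from 0.021 to 0.12 over 12 comparisons. The symbols Rpl3l, Rpl10l, Rpl39l and Rps4l were listed in neither table.

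Cytosolic ribosomal proteins are assembled with ribosomal RNA in the nucleolus into the small subunit, which decodes the mRNA, and the large subunit, which joins amino acids. Most of their mRNAs begin with a 5′ terminal oligopyrimidine (TOP) tract, a cytidine followed by a run of pyrimidines, through which the kinase complex mTORC1 and the RNA-binding protein Larp1 control their translation. The transcription factor Myc is known to promote ribosome production, and free Rpl5 and Rpl11, bound to 5S ribosomal RNA, can block Mdm2 and stabilise p53.

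All cells were from the p19/Nras line, a hepatocellular carcinoma line without p19 (the p53 activator Arf) that carries oncogenic Nras. In the Myc experiment, Trim33-WT cells received a control guide RNA, and the KO1 and KO2 lines received guides against Trim33, a ubiquitin ligase. Each of the 3 carried either the empty pWZL vector (Ctrl) or a vector for Myc, giving 6 groups of 2 libraries. In the HU experiment, Trim33-WT cells and a Trim33-KO line without a number received vehicle or 1 mM hydroxyurea (HU), which depletes the nucleotides needed for DNA replication, for 4 h, giving 4 groups of 2 libraries. The labels do not say whether a KO line is a clone or a pool, or whether the libraries of a group came from separate cultures, so that all p-values measure the spread between libraries.

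The 12 libraries of the Myc experiment held 14753177 to 17949430 counts each, and the 8 of the HU experiment held 2315327 to 3082202. Levels are given as CPM, counts per 1000000 counts of the TMM-scaled library total. Trim33 mRNA stood at 246 and 258 CPM in the WT Ctrl libraries, at 123 and 130 CPM in KO1 Ctrl and at 201 and 207 CPM in KO2 Ctrl. With the Myc vector, Trim33 stood at 131 and 155 CPM in the libraries labelled WT, below the 185 and 193 CPM of those labelled KO1 and above the 124 and 125 CPM of those labelled KO2. These levels go against the labels of the Myc-vector libraries, which are therefore cited as labelled. In the HU experiment Trim33 lay between 125 and 142 CPM in WT and between 43.8 and 52.2 CPM in KO libraries. Of 8 hepatocyte markers, Afp alone was listed, at 0.22 to 33.0 CPM over all libraries, so that the hepatocyte identity of the line rests on its label. The keratins Krt8 and Krt18, 2 of 4 epithelial markers, summed to 1861 CPM or more in every library. Of 6 immune and endothelial markers, Cd68 alone was listed, at 0.79 to 6.3 CPM. Fibroblast markers summed to 711 to 791 CPM in KO1 Ctrl and 714 to 729 CPM in libraries labelled KO2 Myc, against 103 to 222 CPM in the other 4 groups of the Myc experiment (4 of 4 markers listed). The sum hides markers that moved apart: in KO2 Ctrl against WT Ctrl, Col3a1 and Pdgfrb were higher and Col1a1 and Col1a2 lower. In the HU experiment the fibroblast markers summed to 57.5 to 64.7 CPM in WT and 8.0 to 13.8 CPM in KO libraries (3 of 4 listed). The part of these markers in the differences between lines was not tested, and in bulk RNA fewer cells of a type cannot be told apart from less RNA per cell.

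Sequences around the transcription start show the element that many of these mRNAs share. RefSeq promoters (GRCm38.p6, 250 bases before to 50 bases after the start) matched 63 of the 86 members by Entrez identifier. A TOP tract was searched on the sense strand as C at the annotated start followed by at least 4 bases that are each C or T. It was found in 15 of 63 members (23.8%), against 2.99% of the 9733 other genes of the Myc experiment with a promoter and 3.01% of all 27025 genes. With the first C allowed within 10 bases of the annotated start, 37 members (58.7%) and 36.8% of the other genes held a tract, so the looser search separates them less. The 30 bases centred on the start are shown for members that recur below. Capitals mark the tract, which begins at the start site. The first 5 members hold it, and in the last 3 the run at the annotated start is absent. These last 3 each hold a tract, not capitalised, that begins within 10 bases of the annotated start.
Rps6, chr4:86857353-86857382, minus strand: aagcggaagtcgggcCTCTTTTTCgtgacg
Rpl28, chr7:4792950-4792979, plus strand: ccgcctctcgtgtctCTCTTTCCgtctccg
Rpl35, chr2:39005117-39005146, minus strand: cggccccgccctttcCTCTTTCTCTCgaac
Rps27, chr3:90213634-90213663, minus strand: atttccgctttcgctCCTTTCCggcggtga
Rps27rt, chr9:114982725-114982754, minus strand: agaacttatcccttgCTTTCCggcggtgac
Rpl36a, chrX:134585639-134585668, plus strand: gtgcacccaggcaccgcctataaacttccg
Rpl22l1, chr3:28805493-28805522, plus strand: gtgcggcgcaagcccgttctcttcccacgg
Rpl12, chr2:32961697-32961726, plus strand: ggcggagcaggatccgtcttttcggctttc

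The E-box CACGTG, the palindromic motif that Myc and its partner Max bind, reads alike on both strands. It was present in the 300-base windows of 6 of 63 members (9.52%), namely Rpl13a, Rpl14, Rpl19, Rpl23, Rpl34 and Rps19, against 11.6% of the other genes of the Myc experiment and 8.09% of all genes. The examples below hold it in capitals, 200, 168 and 120 bases before an annotated start. A match describes these letters and says nothing of binding.
Rpl13a, chr7:45128928-45128957, minus strand: cgctccgaaaccCACGTGacatcccgcccc
Rpl14, chr9:120571337-120571366, plus strand: ccaagctcactgCACGTGtctgaggagaag
Rps19, chr7:24884781-24884810, plus strand: tggagccgcggcCACGTGcgagcggcaggc

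The 86 genes took 4.02% to 4.32% of all counts in the 6 Ctrl-vector libraries. In the libraries labelled Myc they took 5.76% and 4.91% in WT, 5.38% and 5.00% in KO1 cells, and 5.00% and 5.35% in KO2 cells. Every Myc-labelled library thus lay above every Ctrl library. The mean share was 1.29 times that with the Ctrl vector in WT, 1.2 times in KO1 and 1.29 times in KO2, although an exact test of 2 libraries against 2 cannot go below p = 0.33, two-sided. In the HU experiment the shares were 4.13% and 4.58% in WT with vehicle, 4.24% and 4.71% in KO with vehicle, 4.24% and 4.15% in WT with HU and 4.24% and 4.44% in KO with HU. These groups overlapped, except that both KO libraries with HU and both KO libraries with vehicle lay above both WT libraries with HU. The separation was narrow: the higher WT library with HU stood at 4.239%. The lower KO libraries stood at 4.241% with HU and 4.244% with vehicle.

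**Figure D1:**
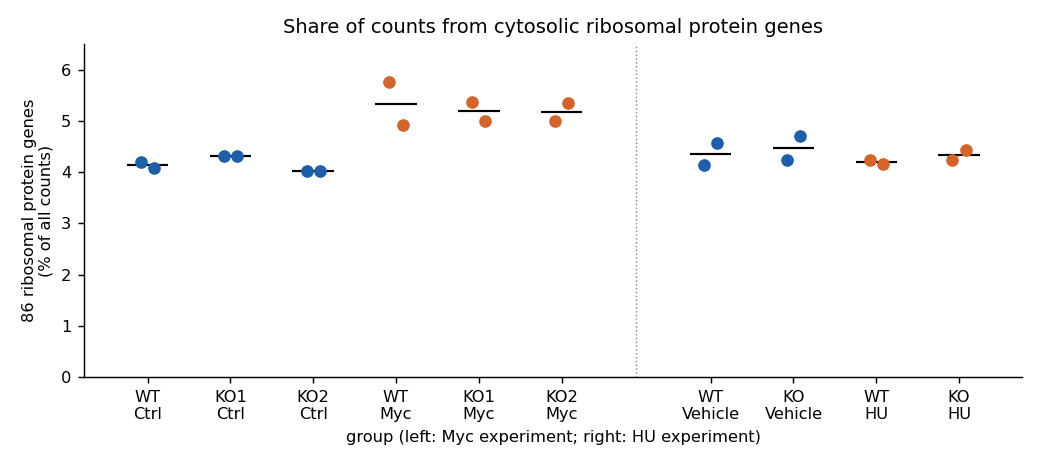
Share of all counts that came from the 86 cytosolic ribosomal protein genes, in percent, for each library (points) with the group mean (line), in the Myc experiment at the left and the HU experiment at the right. The 6 libraries labelled Myc lie between 4.91% and 5.76%, above the 6 Ctrl libraries at 4.02% to 4.32%, while the HU experiment spans 4.13% to 4.71%.

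Levels among the members spanned a wide range. Per kilobase of median protein-coding transcript length (GENCODE vM1, build mm9, 78 members with a length), the highest levels in WT Ctrl cells were those of the stalk proteins Rplp1 (2085 CPM per kb) and Rplp0 (1840 CPM per kb), which recruit elongation factors, followed by Rpl8 (1705 CPM per kb) and Rpl4 (1643 CPM per kb). The same 4 genes headed the order in WT cells with vehicle, led by Rpl8 at 2456 CPM per kb. The lowest were Rpl39 (2.33 CPM per kb), Rpl7l1 (64.3 CPM per kb) and Rps20 (101 CPM per kb), whose median annotated transcript is 3706 bases long. Rpl39, a small protein of the exit tunnel, was listed at 1.4 to 2.3 CPM in the Myc experiment and at 9.2 to 17.1 CPM in the HU experiment. Its counts therefore have the least precision among the members.

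The comparison of Myc with Ctrl vectors asked how the ribosomal protein genes stood in cells given exogenous Myc. Genes with an adjusted p below 0.01 in edgeR's quasi-likelihood test were called. In the libraries labelled WT Myc, 54 of 86 members rose against WT Ctrl and 0 fell, while 21.6% of all genes rose and 22.7% fell. In those labelled KO1 Myc, 52 rose and 0 fell against KO1 Ctrl (17.9% and 18.2% of all genes, 36.1% in either direction). In those labelled KO2 Myc, 73 rose and 1 fell against KO2 Ctrl (20.2% and 18.6% of all genes, 38.8% in either direction). The rises were small, with a median log2FC of 0.29, 0.28 and 0.37 (1.22-, 1.22- and 1.29-fold), against medians near 0 for all genes. Over 529 non-member genes with short transcripts that also passed a minimum mean CPM, the medians were 0.049, -0.020 and 0.009. The large and small subunits had median log2FC of 0.28 and 0.31 in WT cells. They were 0.29 and 0.28 in KO1, and 0.36 and 0.37 in KO2. Without the 6 near-identical copies, 50, 47 and 68 of 80 members rose.

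**Figure D2:**
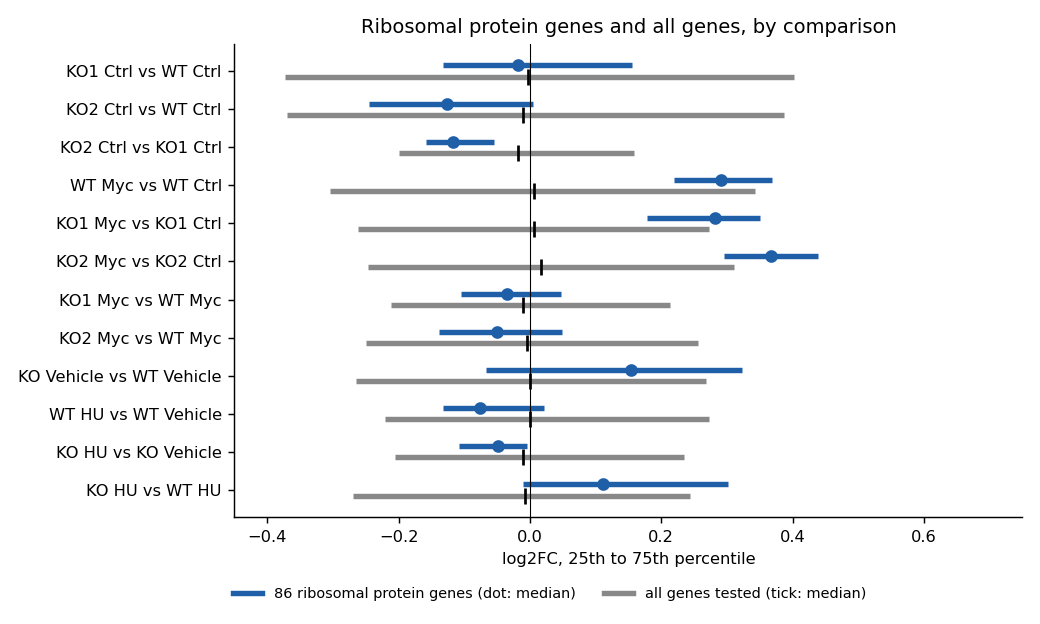
Distribution of log2FC over the 86 ribosomal protein genes (blue, dot at the median) and over all genes tested (grey, tick at the median), as the 25th to 75th percentile, for each of 12 comparisons. The blue bars lie wholly above 0 in the 3 Myc against Ctrl comparisons, with medians of 0.29, 0.28 and 0.37, while the grey ticks stay near 0.

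Because the KO1 and KO2 labels are in doubt for the Myc-vector libraries, the Myc effect was also averaged over the lines, which does not depend on which KO line carries which label. This average was added after the results were seen. Averaged over both KO lines, 83 of 86 members rose and 0 fell, with a median log2FC of 0.31 (21.1% and 20.9% of all genes), and Rpl36al, Rpl39 and Rplp1 did not pass. Averaged over all 3, 83 rose and 0 fell, with a median log2FC of 0.31 (24.1% and 23% of all genes), and Rpl36al, Rpl39 and Rpl7l1 did not pass. With the lines as labelled, 27 of the 86 members rose in each of the 3 lines (2.59% of all genes). Of the rest, 43 rose in 2 lines, 12 in 1 line and 4 in none (57.2% of all genes). Rpl36al, Rpl39 and Rpl7l1 were among the last 4. For 47 members (54.7%), all 6 Myc-labelled libraries lay above all 6 Ctrl libraries (5.34% of all genes), and for 0 members all lay below (4.81%).

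Rpl5 and Rpl11, the proteins of the 5S particle, rose in each of the 3 lines as labelled. Rpl11 stood at 286 and 275 CPM in WT Ctrl, 315 and 316 CPM in KO1 Ctrl and 317 and 327 CPM in KO2 Ctrl. It stood at 412 and 352 CPM in the libraries labelled WT Myc, 412 and 370 CPM in KO1 Myc and 382 and 383 CPM in KO2 Myc. All Myc-labelled libraries were above all Ctrl libraries, and the log2FC was 0.44 (SE 0.07), 0.31 (SE 0.07) and 0.25 (SE 0.07) in WT, KO1 and KO2. Rpl5 stood at 680 and 683 CPM in WT Ctrl, 577 and 565 CPM in KO1 Ctrl and 579 and 550 CPM in KO2 Ctrl, and at 871 and 739, 824 and 771, and 708 and 723 CPM in the libraries labelled WT, KO1 and KO2 Myc. Its log2FC was 0.24, 0.48 and 0.34 (SE 0.07 each, edgeR adjusted p = 0.00583, 1.85e-05 and 0.000483).

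Of 14 members of the 40S head, the part that swivels as the mRNA advances, 10 rose in WT, 8 in KO1 and 13 in KO2, and 0 fell. Over all genes, 21.6%, 17.9% and 20.2% rose. Rps19, a head protein mutated in Diamond-Blackfan anaemia, stood at 419 and 398 CPM in WT Ctrl and at 392 to 412 CPM in KO Ctrl libraries. In the Myc-labelled libraries it stood at 622 and 513 CPM in WT, 526 and 481 CPM in KO1 and 473 and 529 CPM in KO2. These groups did not overlap, and the log2FC was 0.47, 0.30 and 0.35 (SE 0.08 each). Of 17 members of the 40S body, 11, 8 and 16 rose in WT, KO1 and KO2 and 0 fell. Rps6, the substrate of S6 kinase, rose in KO1 and KO2, with log2FC of 0.29 (SE 0.07, edgeR adjusted p = 0.00261) and 0.33 (SE 0.07, edgeR adjusted p = 0.00107), and had a log2FC of 0.22 in WT (SE 0.07, edgeR adjusted p = 0.0145), short of the threshold.

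Of the 4 stalk genes Rplp0, Rplp1, Rplp2 and Rpl12, 3 rose in WT, 1 in KO1 and 4 in KO2. Of 8 genes lining the exit tunnel and its rim, 6, 4 and 6 rose. Beside both lists, 21.6%, 17.9% and 20.2% of all genes rose. Rpl35, at the rim, stood at 424 and 421 CPM in WT Ctrl and at 299 to 320 CPM in KO Ctrl libraries, and in the Myc-labelled libraries at 565 and 462 CPM in WT, 470 and 411 CPM in KO1 and 400 and 437 CPM in KO2. The WT Ctrl level thus overlapped that of the libraries labelled KO Myc, although Rpl35 rose within each line as labelled. Rack1, a scaffold on the 40S head whose symbol is outside the rule, rose in each of the 3 lines as labelled. Its log2FC was 0.26, 0.37 and 0.44 (SE 0.07 each).

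**Figure D3:**
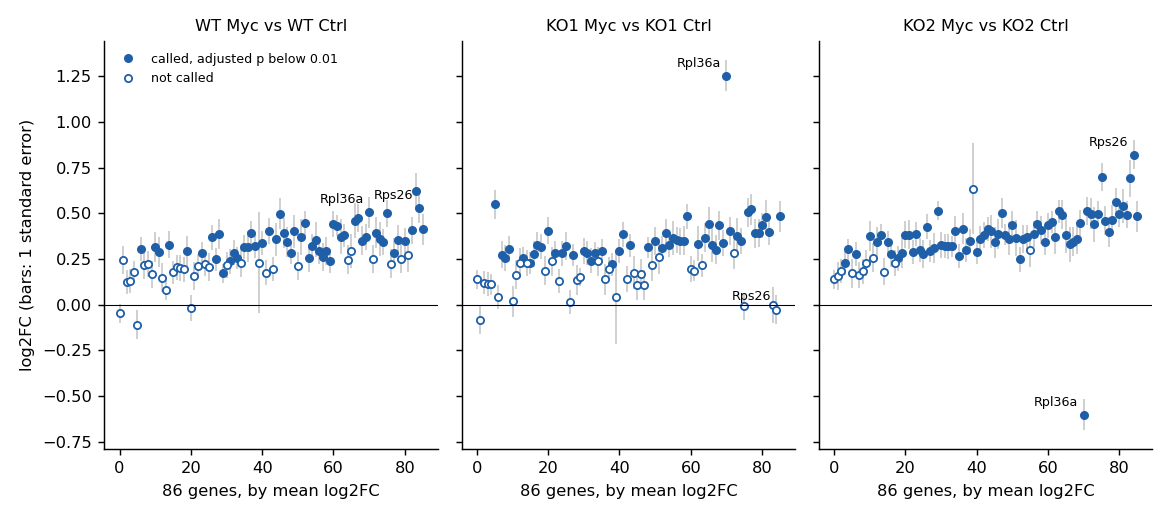
log2FC of Myc against Ctrl vector with 1 standard error for each of the 86 ribosomal protein genes, ordered along the horizontal axis by their mean log2FC over the 3 lines, with filled points for adjusted p below 0.01. Most points lie near 0.3 in each line, while, with the KO lines as labelled, Rpl36a is at 1.25 in KO1 and -0.60 in KO2 (0.33 averaged over both), and Rps26 at -0.03 in KO1 and 0.82 in KO2 (0.40 averaged over both).

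The members were also split by the tract at the start. In WT, the 15 members with a TOP tract at the annotated start had a median log2FC of 0.29, as had the 48 without. Those 48 include members, such as Rpl12, with a tract within 10 bases of the start, which 37 of 63 members hold. In KO1 the medians were 0.32 with and 0.28 without, and in KO2 0.34 with and 0.38 without. Members with the E-box had medians of 0.21, 0.28 and 0.29 over 6 genes in WT, KO1 and KO2, against 0.29, 0.28 and 0.38 over the other 57. These splits are given as descriptions without a test.

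The other genes of the translation machinery give the setting. The counts below stand beside 21.6% of all genes that rose and 22.7% that fell in WT. These shares were 17.9% and 18.2% in KO1, and 20.2% and 18.6% in KO2. Of 15 translation factors and related proteins with known TOP mRNAs, 3 rose and 1 fell in WT, 3 rose and 0 fell in KO1, and 10 rose and 0 fell in KO2. Eef2, the factor that moves the ribosome along the mRNA, rose in KO2 with a log2FC of 0.69 (SE 0.05), and Eef1g, a subunit of elongation factor 1, had log2FC of 0.39, 0.35 and 0.37 in WT, KO1 and KO2 (SE 0.06 each). Of 11 genes of the mTORC1, Larp1 and S6 kinase axis, 0 rose and 5 fell in WT, 3 rose and 2 fell in KO1, and 2 rose and 0 fell in KO2. Larp1 fell in WT, with a log2FC of -0.23 (SE 0.05), and rose in KO1 as labelled, with 0.50 (SE 0.05). Of 12 genes for ribosomal protein chaperones and late assembly, 0 rose and 4 fell in WT, 6 rose and 0 fell in KO1, and 3 rose and 1 fell in KO2. Among them Tsr2, the chaperone of Rps26, had, with the KO lines as labelled, a rise in KO1 (log2FC 1.21, SE 0.10) and a fall in KO2 (log2FC -0.75, SE 0.10). Myc mRNA itself, which in these counts does not separate the vector from the cell's own gene, had log2FC of 0.07 in WT (SE 0.05, edgeR adjusted p = 0.31), 1.73 in KO1 and 1.16 in KO2 (SE 0.06 each).

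The libraries labelled WT Myc disagreed with each other over the members. Replicate 2 was above replicate 1 for 1 of the 86 genes, with a median log2 difference of -0.247, whereas the medians in Ctrl groups lay between -0.039 and 0.002. The medians were -0.120 in the libraries labelled KO1 Myc and 0.102 in those labelled KO2 Myc. The number of members that rose with Myc in WT was 29, and 1 fell, without WT Myc replicate 1. It was 31 without WT Ctrl replicate 1 and 19 without WT Ctrl replicate 2, with 0 that fell, and it reached 81 without WT Myc replicate 2. In KO1 it was 17 without KO1 Myc replicate 1, 23 without KO1 Ctrl replicate 1 and 19 without KO1 Ctrl replicate 2. In KO2 it was 38 without KO2 Myc replicate 2, 47 without KO2 Ctrl replicate 1 and 44 without KO2 Ctrl replicate 2. A fit of only the groups compared called 27 higher in WT, 66 in KO1 and 80 in KO2, beside 35.2%, 45.5% and 45.7% of all genes called in either direction. The median log2FC in WT was 0.155 without WT Myc replicate 1 and 0.416 without replicate 2.

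With the libraries taken as labelled, a few members departed from the shared rise, and the difference between lines in the Myc effect passed the test for 7 members in KO1 against WT (3 higher and 4 lower, beside 19.2% and 18.1% of all genes) and for 4 in KO2 against WT (3 higher and 1 lower, beside 16.6% and 16.2%, or 32.8% in either direction). Without WT Myc replicate 1 the counts were 18 in KO1 and 26 in KO2, and without WT Myc replicate 2 there were 23 in KO1. Without WT Ctrl replicate 2 there were 4 in KO1, and without WT Ctrl replicate 1 or 2, KO2 Ctrl replicate 1 or 2, or KO2 Myc replicate 2 there were 2 in KO2. In the average over both KO lines, which does not depend on the KO1 and KO2 labels, the 7 members had log2FC from 0.22 (Rpsa) to 0.40 (Rps26), beside the median of 0.31 over the 86. All 7 passed the test of Myc against Ctrl in this average, in which 83 of 86 members and 21.1% of all genes rose. Rpl36a (X:131120193-131122601 in mm9), a large-subunit protein near the exit site for transfer RNA, stood at 147 and 138 CPM in WT Ctrl, 86.2 and 88.1 CPM in KO1 Ctrl and 155 and 162 CPM in KO2 Ctrl. It stood at 219 and 185 CPM in libraries labelled WT Myc, 219 and 196 CPM in KO1 Myc and 96.4 and 112 CPM in KO2 Myc. The KO1 Ctrl libraries and those labelled KO2 Myc were low and all others higher. The log2FC with Myc was 0.50 (SE 0.08) in WT, 1.25 (SE 0.09, edgeR adjusted p = 7.02e-09) in KO1 and -0.60 (SE 0.08, edgeR adjusted p = 2.1e-05) in KO2, as labelled. These directions rest on the KO labels, and the average over both KO lines was a rise of 0.33 (SE 0.06, edgeR adjusted p = 0.000248).

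Rps26 (10:128061586-128063562 in mm9), which lies at the mRNA exit channel, stood at 473 and 459 CPM in WT Ctrl, 539 and 521 CPM in KO1 Ctrl and 362 and 370 CPM in KO2 Ctrl. The libraries labelled WT Myc were at 730 and 614 CPM, those labelled KO1 Myc at 551 and 490 CPM and those labelled KO2 Myc at 605 and 686 CPM. The libraries labelled KO1 overlapped with and without Myc, with a log2FC of -0.03 (SE 0.08), against 0.53 (SE 0.08) in WT and 0.82 (SE 0.08) in KO2. The average over both KO lines was 0.40 (SE 0.06, edgeR adjusted p = 2.04e-05). Rpl41, the smallest ribosomal protein, had log2FC of 0.62 in WT, -0.00 in KO1 and 0.69 in KO2 (SE 0.10 each), and Rps15, a head protein, had 0.50, -0.01 and 0.70 (SE 0.08 each). Averaged over both KO lines, Rpl41 and Rps15 each had 0.34 (SE 0.07 and 0.05). Rps26, Rpl41 and Rps15 are all on chromosome 10. Rpl12, a stalk base protein, had a log2FC of -0.02 in WT, 0.41 in KO1 and 0.38 in KO2 (SE 0.07 each), and 0.39 (SE 0.05) averaged over both KO lines.

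**Figure D4:**
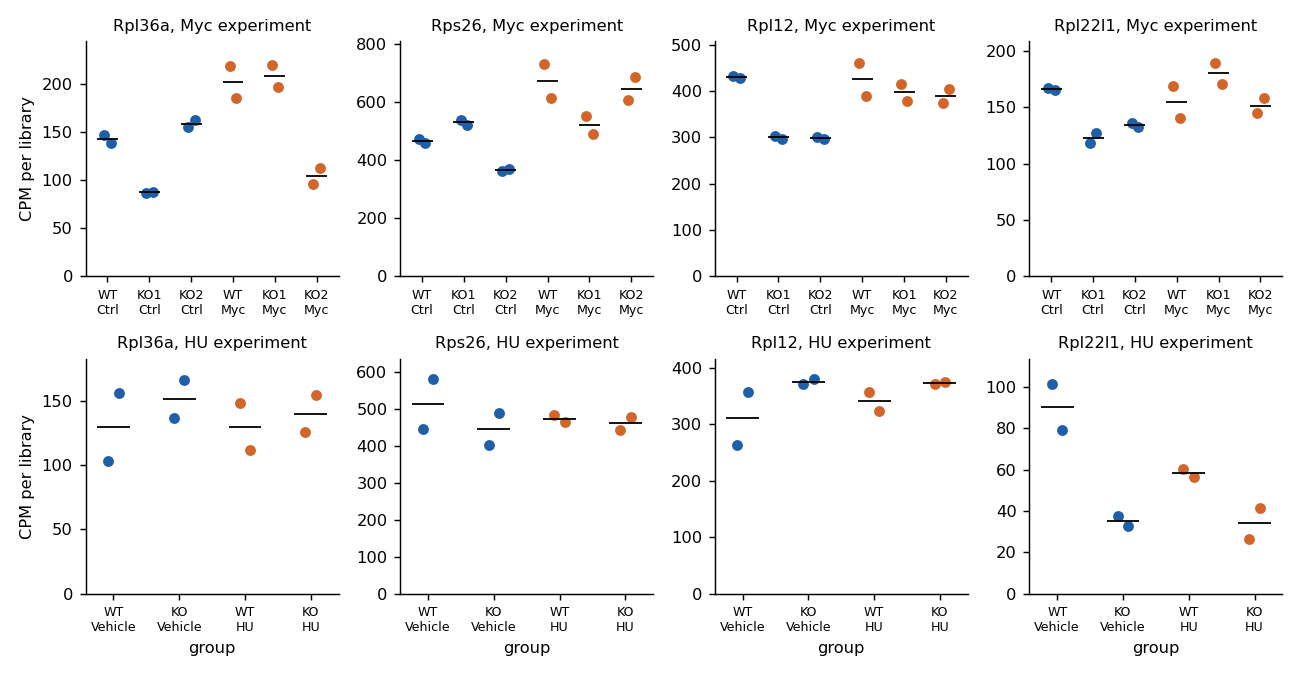
CPM of Rpl36a, Rps26, Rpl12 and Rpl22l1 in each library (points) with the group mean (line), in the Myc experiment (top) and the HU experiment (bottom), with vertical axes from 0. Rpl36a is low in KO1 Ctrl (86.2 and 88.1 CPM) and in the libraries labelled KO2 Myc (96.4 and 112 CPM), and Rpl22l1 is lower in KO than in WT libraries of the HU experiment.

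The comparison of the KO lines with Trim33-WT under the Ctrl vector asked what loss of Trim33 went with. In KO1, 7 members were higher and 8 lower than in WT Ctrl, while 25.5% of all genes were higher and 26.7% lower. In KO2, 3 were higher and 21 lower (23.3% and 26.6% of all genes). In either direction 17.4% of the members were called in KO1, beside 52.2% of all genes, and 24 of 86 in KO2, beside 49.9% of all genes. The median log2FC was -0.02 in KO1 and -0.13 in KO2. With library totals in place of TMM scaling, 15 were higher and 4 lower in KO1, and 4 higher and 9 lower in KO2, so that the balance of directions in KO1 depends on the scaling. Both comparisons share the WT Ctrl libraries. Leaving out any of the libraries compared left 8 or 9 members in KO1 and 9 to 12 in KO2, while a fit of only the groups compared, which estimates the spread from 4 libraries, called 24 higher and 22 lower in KO1 and 7 higher and 40 lower in KO2, beside 61.2% and 59.3% of all genes.

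Members that differed from WT Ctrl in the same direction in both KO lines were Rpl6, Rpl6l and Rpl9, which were higher (18.1% of all genes), and Rpl5, Rpl12, Rpl13, Rpl22l1 and Rpl35, which were lower (20.8% of all genes). Rpl12 (2:32817079-32820016 in mm9) stood at 433 and 429 CPM in WT Ctrl, 304 and 296 CPM in KO1 Ctrl and 301 and 296 CPM in KO2 Ctrl. The WT libraries were above all 4 KO libraries, and the log2FC was -0.52 (SE 0.07, edgeR adjusted p = 9.12e-06) in KO1 and -0.53 (SE 0.07, edgeR adjusted p = 8.43e-06) in KO2. Rpl9, a large-subunit protein near the stalk base, stood at 294 and 283 CPM in WT Ctrl, 392 and 379 CPM in KO1 Ctrl and 364 and 382 CPM in KO2 Ctrl, with log2FC of 0.42 and 0.37 (SE 0.07 each). Rpl22l1, a paralogue whose level is known to be held down by Rpl22, stood at 167 and 165 CPM in WT Ctrl, 118 and 127 CPM in KO1 Ctrl and 136 and 132 CPM in KO2 Ctrl, with log2FC of -0.43 and -0.31 (SE 0.08 each). Its parent Rpl22 had log2FC of 0.00 and -0.14 (SE 0.07 each) and was not called in either line. By group mean, KO against WT with vehicle in the HU experiment had the same order for Rpl9, Rpl13 and Rpl22l1. The order was opposite for Rpl5, Rpl6, Rpl6l, Rpl12 and Rpl35. Rpl12 stood there at a mean of 311 CPM in WT and 376 CPM in KO, and Rpl6 at 985 and 936 CPM.

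Between the KO lines under the Ctrl vector, 1 member was higher and 7 were lower in KO2 than in KO1 (8.33% and 9.96% of all genes). Rpl36a was higher, with a log2FC of 0.86 (SE 0.09), and Rps26, Rpl41, Rps15, Rpsa, Rpl10, Rpl4 and Rps25 were lower. Leaving out any of the 4 libraries left 3 or 4 members, and a fit of only these groups called 1 higher and 33 lower, beside 32.2% of all genes. Of these 8, 7 had the opposite order between the libraries labelled KO2 Myc and KO1 Myc, Rpl10 being the exception, as had 2084 of the 2398 genes (86.9%) that differed between KO2 Ctrl and KO1 Ctrl. Col3a1 had group means of 344 CPM in KO1 Ctrl and 41.6 CPM in KO2 Ctrl, against 37.9 CPM in KO1 Myc and 348 CPM in KO2 Myc. For Col1a2 these were 141, 15.9, 3.8 and 89.0 CPM, in the same order. Whether the KO1 and KO2 labels name the same line with both vectors was not tested. If they do not, Myc against Ctrl within a KO label compares different lines.

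Of 12 genes for ribosomal protein chaperones and late assembly, 0 were higher and 7 lower in KO1 Ctrl, and 1 was higher and 7 lower in KO2 Ctrl. Nmd3, the export adaptor of the large subunit, had log2FC of -0.95 and -0.73 (SE 0.07 each), and Pdcd2, a chaperone of Rps2, had -1.15 and -1.18 (SE 0.11 each). Of 15 translation factors, 3 were higher and 3 lower in KO1 and 1 higher and 6 lower in KO2. Of 11 mTORC1 axis genes, 2 were higher and 4 lower in KO1 and 2 higher and 3 lower in KO2. Beside these 3 lists, 25.5% of all genes were higher and 26.7% lower in KO1, and 23.3% and 26.6% in KO2. Eif4ebp1, a repressor of cap-dependent translation, had log2FC of -1.34 and -1.30 (SE 0.08 each). Myc mRNA stood at 433 and 439 CPM in WT Ctrl and at 186 to 219 CPM in KO Ctrl libraries. In the HU experiment, KO against WT with vehicle gave log2FC of -0.04 (SE 0.14) for Eif4ebp1 and -0.02 (SE 0.12) for Myc. Nmd3 had -0.24 (SE 0.14) and Pdcd2 -0.35 (SE 0.26) there, and none of these genes was called.

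Among the Myc-vector libraries, 5 members were higher and 4 lower in those labelled KO1 than in those labelled WT (12.6% and 12.5% of all genes), and 5 higher and 4 lower in those labelled KO2 (17.2% and 18% of all genes). Rps14 was higher in both, with log2FC of 0.33 and 0.28 (SE 0.08 each), and Rpl36a was lower in those labelled KO2, with a log2FC of -0.95 (SE 0.08). These counts rest on which WT Myc library is used. Without WT Myc replicate 1, 16 members were higher and 1 lower in KO1, and 14 higher and 1 lower in KO2. Without WT Myc replicate 2, 3 were higher and 31 lower in KO1, and 3 higher and 37 lower in KO2. Without KO1 Myc replicate 1 or 2, 5 members were called in KO1. In KO2, 4 were called without KO2 Myc replicate 1 and 3 without replicate 2. A fit of only the groups compared called 0 in KO1 and 1 in KO2, beside 12.2% and 21.8% of all genes.

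The HU experiment compared KO with WT cells with and without replication stress, at a threshold of 0.05. With vehicle, 22 members were higher and 3 lower in KO (6.29% and 5.74% of all genes), with a median log2FC of 0.15. With HU, 21 were higher and 4 lower in KO (5.75% and 5.25% of all genes), with a median log2FC of 0.11. Members that were higher in KO both with and without HU numbered 17 (3.17% of all genes), and 3, among them Rpl22l1 and Rpl36al, were lower in both (2.6% of all genes). Higher members came from both subunits, 10 large and 12 small with vehicle. Library totals in place of TMM scaling gave 14 higher and 6 lower with vehicle and 13 higher and 8 lower with HU. Without KO Vehicle replicate 2, 6 were higher and 5 lower with vehicle, and its members stood above those of replicate 1 by a median log2 difference of 0.153. Leaving out WT HU replicate 1, WT HU replicate 2, KO HU replicate 1 or KO HU replicate 2 left 6, 6, 10 and 5 members called with HU. A fit of only the groups compared called 13 higher and 2 lower with vehicle, and 29 higher and 10 lower with HU, beside 8.99% and 17.2% of all genes. Members also stood higher in replicate 2 in WT with vehicle and in KO with HU, by median log2 differences of 0.123 and 0.064. In WT with HU this difference was -0.019.

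Rpl22l1 (3:28704358-28706274 in mm9) fell most. It stood at 102 and 78.9 CPM in WT with vehicle, 37.4 and 32.7 CPM in KO with vehicle, 60.5 and 56.5 CPM in WT with HU and 26.5 and 41.5 CPM in KO with HU. Every KO library was below every WT library, and the log2FC was -1.36 (SE 0.20, edgeR adjusted p = 3.74e-07) with vehicle and -0.79 (SE 0.20, edgeR adjusted p = 0.00486) with HU. Rpl22 stood at 362 and 371 CPM in WT and 389 and 423 CPM in KO with vehicle and was not called.

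Rpl7l1 (17:46910856-46919605 in mm9), a relative of Rpl7 found in pre-ribosomes, rose most among the members in KO. It stood at 138 and 154 CPM in WT and 261 and 281 CPM in KO with vehicle, and at 130 and 106 CPM in WT and 219 and 223 CPM in KO with HU. The groups did not overlap, and the log2FC was 0.89 (SE 0.12, edgeR adjusted p = 1.23e-07) and 0.90 (SE 0.12, edgeR adjusted p = 1.21e-07). Rpl7l1 was not higher in the KO lines of the Myc experiment, with means of 167.5 CPM in WT Ctrl, 150.6 CPM in KO1 Ctrl and 158.2 CPM in KO2 Ctrl. Rps28, a protein of the 40S head, stood at 61.7 and 53.8 CPM in WT and 87.4 and 102 CPM in KO with vehicle, with a log2FC of 0.72 (SE 0.17). Rpl28 (7:4744476-4746164 in mm9) stood at 253 and 283 CPM in WT and 370 and 466 CPM in KO with vehicle, with a log2FC of 0.64 (SE 0.11), and Rps19 at 195 and 155 CPM in WT and 272 and 269 CPM in KO, with 0.63 (SE 0.12). With HU their log2FC was 0.62 (SE 0.17), 0.43 (SE 0.11) and 0.44 (SE 0.12), in the same order. Rps27 and its copy Rps27rt had log2FC of 0.52 (SE 0.16) and 0.42 (SE 0.11) with vehicle, and the start sequences of both are shown above. Rpl36al (12:70283718-70285070 in mm9) stood at 245 and 277 CPM in WT and 188 and 188 CPM in KO with vehicle, with a log2FC of -0.47 (SE 0.12).

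Most higher members of the HU experiment lay on 6 chromosomes. On those chromosomes (2, 3, 4, 6, 7 and 17) where the other genes had a median log2FC above 0.1 in KO against WT with vehicle, 18 of 35 members were higher and 1 lower, while from 8.94% to 15.4% of the other genes of each of these chromosomes were higher. On the other 13 chromosomes with members, 4 of 51 were higher and 2 lower. With HU, the same 6 chromosomes held 18 higher and 1 lower (8.6% to 13.1% of the other genes there were higher), and the other 13 held 3 higher and 3 lower. Chromosome 7 carries 14 members, of which 10 were higher with vehicle, as were 15.4% of its 792 other genes. The 14 members had a median log2FC of 0.36, beside 0.29 for those other genes. On chromosome 12 the medians were -0.31 over 3 members and -0.36 over the other genes, and on chromosome 15 they were -0.24 over 4 members and -0.23. Over the 19 chromosomes the medians of members and other genes had r = 0.89 (Spearman's rho 0.819) with vehicle and r = 0.823 with HU, as a description over points that share libraries. With each chromosome's median removed, an alternative added after the data were seen, 8 members were higher and 2 lower with vehicle, and 5 higher and 1 lower with HU. The part of chromosome-wide differences in the other calls was not tested.

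Between lines of the Myc experiment, r over 19 chromosomes was 0.962 for the libraries labelled KO1 Myc and 0.836 for those labelled KO2 Myc, each against WT Myc, and 0.773 for KO1 Ctrl and 0.722 for KO2 Ctrl, each against WT Ctrl. In KO1 Myc against WT Myc, the members on chromosome 18, Rps14 and Rpl17, had a median log2FC of 0.33 beside 0.35 for the other genes there. For the Myc vector in WT cells, the chromosome medians of the other genes lay between -0.12 and 0.10, and those of the members between 0.17 and 0.45 (r = 0.316). For Myc against Ctrl in KO1 and KO2, r was 0.519 and 0.712 (0.744 by Spearman's rho in KO2), the other genes' medians lay between -0.20 and 0.13 and between -0.26 and 0.22, and the members' chromosome medians lay between 0.11 and 0.45 and between 0.24 and 0.53. With chromosome medians removed, 61, 52 and 73 members rose with Myc in WT, KO1 and KO2.

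**Figure D5:**
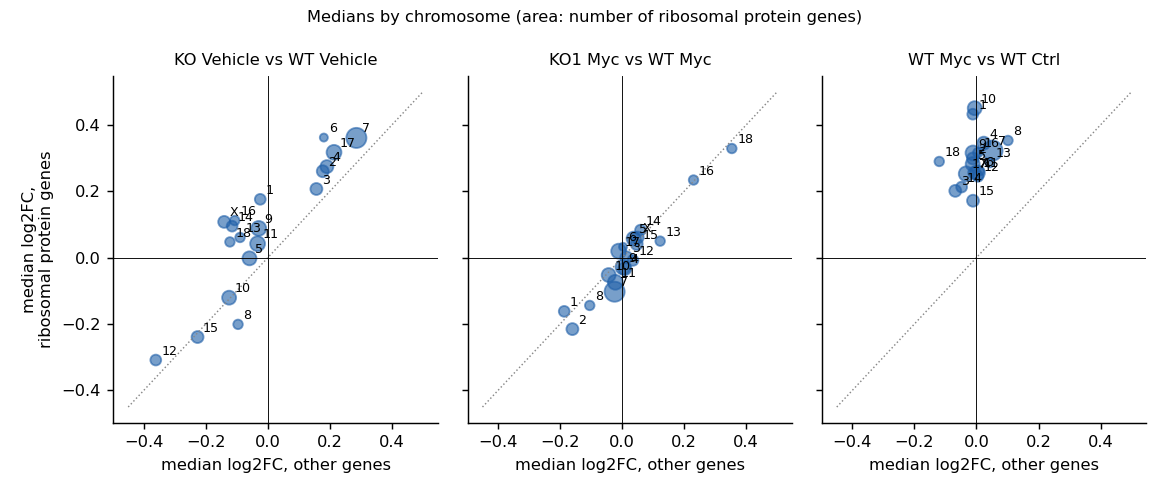
Median log2FC of the ribosomal protein genes of each chromosome (vertical axis) against that of the other genes of the same chromosome (horizontal axis), with the point area showing the number of ribosomal protein genes and the dotted line showing equality. Points lie along the line for KO against WT with vehicle (r = 0.89) and for KO1 Myc against WT Myc (r = 0.962), and sit between 0.17 and 0.45 at all chromosomes for WT Myc against WT Ctrl.

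The last comparison set HU against vehicle within each genotype, and few members were called. In WT cells, 0 members were higher and 1, Rpl22l1, was lower with HU than with vehicle (6.39% and 3.44% of all genes, 9.83% in either direction), with a log2FC of -0.62 (SE 0.18, edgeR adjusted p = 0.0183). This call was lost in DESeq2, without WT HU replicate 1 and without WT HU replicate 2. Without WT Vehicle replicate 1, 2 members were higher and 7 lower, and without WT Vehicle replicate 2, 0 were higher and 2 lower. In KO cells, 0 members were called by edgeR or DESeq2 (4.65% and 1.8% of all genes were higher and lower in edgeR, 6.45% in all), and 4 had an unadjusted p below 0.05. The median log2FC was -0.08 in WT and -0.05 in KO, and the range over the 86 members was -0.62 to 0.24 in WT and -0.73 to 0.11 in KO. The HU effect differed between KO and WT for 0 members in edgeR and in DESeq2 (0.0446% and 0.0268% of all genes were higher and lower in edgeR, 0.0714% in all), with 2 members at an unadjusted p below 0.05. Over the same libraries Myc mRNA rose with HU, from 203 and 162 CPM to 385 and 331 CPM in WT and from 181 and 178 CPM to 267 and 253 CPM in KO.

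Of 11 mTORC1 axis genes, 2 rose and 1 fell in WT, and 0 rose and 1 fell in KO, and of 15 translation factors, 0 rose and 2 fell in WT and none was called in KO. Over all genes, 6.39% rose and 3.44% fell in WT, and 4.65% rose and 1.8% fell in KO. Of 12 chaperone and assembly genes, 1 rose and 1 fell in WT and 0 rose and 1 fell in KO. Rrs1, which brings Rpl5 and Rpl11 into the pre-ribosome, was the member of that list that fell in both.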

How the data were processed

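The authors mapped RNA-seq reads to mm9 with STAR 2.5.4 (edgeR 3.26.8, and for the HU experiment bcl2fastq 2.20 and FastQC 0.11.5, are also named in the submitters' processing notes) and deposited counts per gene in 1 table per experiment. The counting tool, annotation and strand setting are not given in the sources used here, so overlapping and antisense genes cannot be told apart. The table of the Myc experiment is called normalized, but its values are whole numbers with unequal totals and were treated as raw counts. In the HU experiment, 71.9% of counts from 1 to 50 are even (48.4% in the other), so dividing by 2 was tried as an alternative. The 8 deposited tables of the authors' own comparisons (log2 fold changes, mean levels and p-values) were not used.

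Each experiment was fitted alone with edgeR 4.0.16 (limma 3.58.1, R 4.3.3): filterByExpr (0 genes removed), TMM factors from 0.958 to 1.020, 1 coefficient for each group, quasi-likelihood tests and Benjamini-Hochberg adjustment over all genes. The SE is the absolute log2FC divided by the square root of F. Members and lists were chosen with earlier results of these data known. Named genes were a fixed set (the 5S particle, Rps6, Rps19, Rps26, Rpl10, Rpl13a, Rps27a, Rpsa, stalk proteins, paralogues and parents), the 5 largest rises and falls per comparison at 5 CPM or more, the 3 highest and 3 lowest by level, and up to 3 called genes per list. Counts of calls name others, which were chosen after their values were seen, as were the examples Rpl13, Rps14, Rps25 and the sequences printed.

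Alternatives were DESeq2 1.42.0, RLE scaling, library totals, 5 CPM in every library, a fold limit, only the groups compared, a replicate block, chromosome offsets, removal of copies and leaving out each library. The procedure was tested on simulated data. Over all genes, same-numbered libraries did not deviate together (correlations from -0.148 to 0.192 over 15 pairs of groups and from -0.014 to 0.051 over 6). The numbers were therefore not taken as pairs. These correlations do not describe the members alone, which in the HU experiment stood higher in replicate 2 in each group except WT with HU. Values of some genes are not reported here.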

Additional observations from a re-analysis of the deposited data

Results flagged for a closer look

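The difference in the Myc effect between a KO line and WT passed the test (edgeR, adjusted p below 0.01) for 7 members in KO1 and 4 in KO2. In KO1 the effect was larger than in WT for Rpl36a (a difference in log2FC of 0.75), Rpl22l1 (0.66) and Rpl12 (0.42), and smaller for Rpl41 (-0.62), Rps26 (-0.56), Rps15 (-0.51) and Rpsa (-0.35). In KO2 the effect was larger for Rpl12 (0.40), Rpl4 (0.34) and Rpl3 (0.30), and smaller for Rpl36a (-1.11). The difference of Rpl12 was alike in both KO lines. It thus does not rest on which KO line carries which label, although it still rests on the WT label. The other differences rest on the KO1 and KO2 labels of the Myc-vector libraries, whose Trim33 level goes against them. Averaged over both KO lines, which does not depend on those labels, Rpl36a rose with a log2FC of 0.33 (edgeR adjusted p = 0.000248), and over all 3 lines with 0.39 (edgeR adjusted p = 4.79e-06). In the average over both KO lines, Rps26 had 0.40, Rpl12 0.39, Rpl22l1 0.36, Rpl41 and Rps15 0.34 each, Rpl4 0.33, Rpl3 0.32 and Rpsa 0.22. All passed the test of Myc against Ctrl, in which 83 of 86 members and 21.1% of all genes rose. That test does not address the difference from WT. For Rpl12 the call in KO2 was lost under library totals (0.31) and with 5 CPM in every library (0.36), and that of Rps26 in KO1 was lost with chromosome offsets (-0.35).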

How the results depend on the processing

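The counts of members called depended on how many libraries were fitted. With only the groups compared in the fit, 46 members were called in KO1 Ctrl against WT Ctrl, 47 in KO2 Ctrl against WT Ctrl, 34 in KO2 Ctrl against KO1 Ctrl, 27 with Myc in WT, 0 and 1 in KO1 Myc and KO2 Myc against WT Myc, 2 for the difference in Myc effect between KO2 and WT, 15 in KO against WT with vehicle and 39 with HU. Requiring also a log2FC of 0.5 or more in size left 2, 1 and 2 in the comparisons of Ctrl libraries, 3, 4 and 10 with Myc in WT, KO1 and KO2, 0 and 1 in KO1 Myc and KO2 Myc against WT Myc, 1 for the difference in KO2, and 7 and 4 in KO against WT with vehicle and HU. With library totals alone, 13 were called in KO2 Ctrl against WT Ctrl, 5 between the KO lines, 11 for the difference in KO1 and 2 for that in KO2, where the median became -0.017, while 77 rose with Myc in WT. With 5 CPM in every library, 5 were called between the KO lines, 2 for the difference in KO2 and 2 with HU in WT. With chromosome offsets, 5 were called between the KO lines, 5 and 5 in KO1 Myc and KO2 Myc against WT Myc, 4 for the difference in KO1, and 10 and 6 in KO against WT with vehicle and HU. DESeq2 called 16 in KO against WT with vehicle and 0 with HU in WT, where RLE scaling and counts divided by 2 each called 2 and removal of paralogues, copies and members under 5 CPM called 0. Averaging the Myc effect over KO1 and KO2, or over WT, KO1 and KO2, called 83 in either case. The share in KO2 Ctrl over KO1 Ctrl was 0.928-fold without the 10 genes with most counts. The causes were not tested.

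A replicate block, for numbers that were not found to pair the libraries over all genes, called 59 with Myc in WT and 2 with HU in WT. It called 30 and 31 in KO against WT with vehicle and HU.

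Leaving out each library in turn gave 8 to 9 members in KO1 Ctrl against WT Ctrl, 9 to 12 in KO2 Ctrl against WT Ctrl and 3 to 4 between the KO lines. With Myc it gave 19 to 81 in WT, with medians from 0.155 to 0.416, 17 to 50 in KO1 and 39 to 71 in KO2. Against WT Myc it gave 5 to 34 in KO1 Myc (medians -0.160 to 0.088) and 3 to 40 in KO2 Myc (-0.173 to 0.065). For the differences it gave 4 to 23 in KO1 (-0.101 to 0.125) and 2 to 26 in KO2 (-0.043 to 0.206), the highest counts of both being without a WT Myc library. In the HU experiment it gave 11 to 28 in KO against WT with vehicle, 5 to 10 with HU and 0 to 9 with HU in WT. Over 138 results for named genes and 1862 alternatives, 0 reversed and 318 lost the call, 205 of these when a library was left out. With 2 libraries per group, a lone library left in a group was assumed to vary like the others.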

Other observations

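Symbols containing -ps, the pseudogene loci that the rule left out, numbered 33 among the genes of the Myc experiment, against 32 for HU. They took 0.871% to 0.951% of counts in the Ctrl-vector libraries and 1.085% to 1.30% in the libraries labelled Myc, and every library labelled Myc lay above every Ctrl library, as for the 86 members. Reads of such loci can be shared with the genes they derive from, and the part of shared reads in these values was not tested.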
